A study of Mus musculus with 6 samples.

Results

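The genes described here are the glutathione, thioredoxin and peroxiredoxin genes and the targets of the transcription factor NRF2, leaving out the selenoproteins among them. They were chosen by name, and each of the 34 symbols matched 1 of the 55414 genes of the deposited table. RNA came from microglia, the resident macrophages of the brain, of 10-month-old C57BL/6 mice in 2 genotypes, Selk-/- and wild type (WT), with 3 libraries each. Selk-/- stands for loss of Selenok, whose product is a selenium-containing protein of the endoplasmic reticulum. The labels give no other allele or agent, do not say how the allele was made or how microglia were isolated, and do not say whether each library is 1 animal. The third library of each group has 2 numbers in its title, and the sources used here do not say whether it is a pool. P-values therefore set the difference between groups against the spread of these libraries, and that spread can be technical in part.

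NRF2, encoded by Nfe2l2, is held in the cytoplasm by KEAP1, which passes it to a ubiquitin ligase for degradation. Oxidants and electrophiles modify cysteines of KEAP1, so that NRF2 escapes, enters the nucleus, pairs with a small MAF protein and binds the antioxidant response element in front of its target genes. These targets make glutathione, reduce thioredoxin and peroxiredoxins, detoxify quinones and haem and supply NADPH. In microglia and other macrophages they limit damage from the superoxide and peroxide that these cells release.

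The element has the core TGACNNNGC, and promoter sequences from RefSeq (GRCm38.p6, from 250 bases before to 50 after each gene's start) were available for 27 of the 34 genes. The core, on either strand, lay in the promoter of 9 of these 27 genes (33.3%), against 14% of all 27025 genes with a promoter. The AP-1 site TGAGTCA, which overlaps the core in Me1 and Prdx1, lay in 5 of the 27 (18.5%), against 5.95% of all genes. A match is a description of the letters and does not show binding. NRF2 targets were chosen for this list, so a higher share of the core can come from that choice alone. Promoters of Hmox1, Gclc, Gsr, Msra, Sod3, Prdx6 and Gsta4 were not used here. The stretches below hold the core in capitals. They are shown because Nfe2l2 is the regulator itself, Prdx1 and Me1 are the genes with the core whose levels were among the most separated between groups, and Gclm is a classical target whose level was close to that of WT. In Prdx1 and Gclm the capitals are the core read on the other strand. Positions of the stretches are those of GRCm38.p6. Gene positions given further below are those of the deposited table, which do not match them, so they cannot be set against each other.
Nfe2l2 (chr2:75704875-75704913, minus strand): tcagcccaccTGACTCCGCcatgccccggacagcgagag
Prdx1 (chr4:116685446-116685494, plus strand): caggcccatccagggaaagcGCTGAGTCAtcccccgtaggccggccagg
Me1 (chr9:86695892-86695940, minus strand): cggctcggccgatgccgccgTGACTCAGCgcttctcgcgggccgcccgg
Gclm (chr3:122245403-122245451, plus strand): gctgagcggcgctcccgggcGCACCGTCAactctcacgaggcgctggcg
The core starts 240 bases before the gene's start in Nfe2l2, 133 in Prdx1, 6 in Me1 and 134 in Gclm.

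Total counts were 21112082 to 27541487 in the libraries labelled Selk-/- and 26694358 to 28123871 in WT. Selenok itself had 112, 108 and 109 CPM in the libraries labelled Selk-/-, against 112, 125 and 119.7 CPM in WT. These levels overlapped (log2 fold change -0.12, 95% interval -0.27 to 0.039, adjusted p = 0.381 in edgeR), so loss of the targeted RNA is not seen in its count and groups are named by their labels. CPM are counts relative to the library total after TMM scaling. Summed over small nucleolar RNA genes, unscaled CPM were 46.0 and 54.9 in replicates 2 and 3 labelled Selk-/-, and 327 in replicate 1 labelled Selk-/-, against 318 to 324 in WT. The 8 defining microglia markers, all detected, summed to 18346 to 19015 CPM in the libraries labelled Selk-/- and 21967 to 22357 CPM in WT. The 10 endothelial markers summed to 5504 to 7593 CPM in the libraries labelled Selk-/- and 4488 to 5880 CPM in WT, so RNA of vessel cells was present in both groups. Border macrophage markers (8 of 8 detected) summed to 268 to 523 CPM in the libraries labelled Selk-/- and 592 to 878 CPM in WT, and 6 of the 8 were lower without overlap. Of 11 marker sums, those of microglia and border macrophages did not overlap between groups (two-sided exact permutation p = 0.1 for each, the smallest that 3 against 3 libraries allow, adjusted 0.55). The part of these cell types in the results was not tested. In such bulk samples, fewer cells of a type and less RNA per cell cannot be told apart.

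All 34 genes passed the filter on low counts. Compared per length, as FPKM, the most abundant was Sod1, the cytosolic copper-zinc superoxide dismutase, with 128 FPKM in the libraries labelled Selk-/- and 136 FPKM in WT. Taldo1, transaldolase of the pentose phosphate pathway, had 100.002 FPKM in the libraries labelled Selk-/- and 102 FPKM in WT. Prdx5, a peroxiredoxin of mitochondria, peroxisomes and cytosol, had 91.5 FPKM in the libraries labelled Selk-/- and 102 FPKM in WT. Next in the order were Prdx1 and Nfe2l2. The least abundant per length were Slc7a11, the cystine importer, with 1.93 FPKM in the libraries labelled Selk-/- and 1.47 FPKM in WT, and Me1, the cytosolic malic enzyme, with 2.27 FPKM in the libraries labelled Selk-/- and 1.72 FPKM in WT. The genes thus covered a range from 1.70 FPKM for Slc7a11 to 132 FPKM for Sod1 as a mean over the 6 libraries.

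The 2 genotypes were compared to see whether the levels of these genes differ between them. No gene of the 34 passed the edgeR quasi-likelihood test at an adjusted p of 0.05, where 0% of 17739 genes tested were called. At an unadjusted p under 0.05 there were 7 of 34 genes (20.6%), against 19.1% of all genes tested. Of these 7, Slc7a11, Txn1, Prdx1 and Me1 were higher in the libraries labelled Selk-/- (11.8% of the 34, against 9.34% of all genes), and Blvrb, Cat and Gstp1 were lower (8.82%, against 9.74%). The groups did not overlap in CPM for 9 of 34 genes (26.5%), against 26.2% of all genes, which adds Nfe2l2 and Sod2 to the 7. Of the 9, 6 were higher (17.6% of the 34, against 12.5% of all genes) and 3 lower (8.82%, against 13.7%). Each of these shares is near its background, so none is a result about these genes as a group. DESeq2 called 2 of the 34 (5.88%), Blvrb and Cat, both lower, against 7.62% of the 12750 genes it gave an adjusted p, 3.92% in the higher and 3.7% in the lower direction. The submitters' rule, at least 2-fold with an unadjusted p under 0.05, took 0 of the 34 and 1.18% of all genes in edgeR (0.581% higher and 0.598% lower).

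The size of the differences was also that of the transcriptome. The median log2 fold change was 0.050 over the 34 genes, with 21 higher and 13 lower, and -0.0082 over all genes tested. The interquartile range ran from -0.021 to 0.19 for the 34 genes and from -0.18 to 0.17 for all genes. The median size without sign was 0.15 over the 34 genes, 0.18 over all genes and 0.14 over the 10718 genes at or above the mean CPM of the lowest of the 34.

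**Figure D1:**
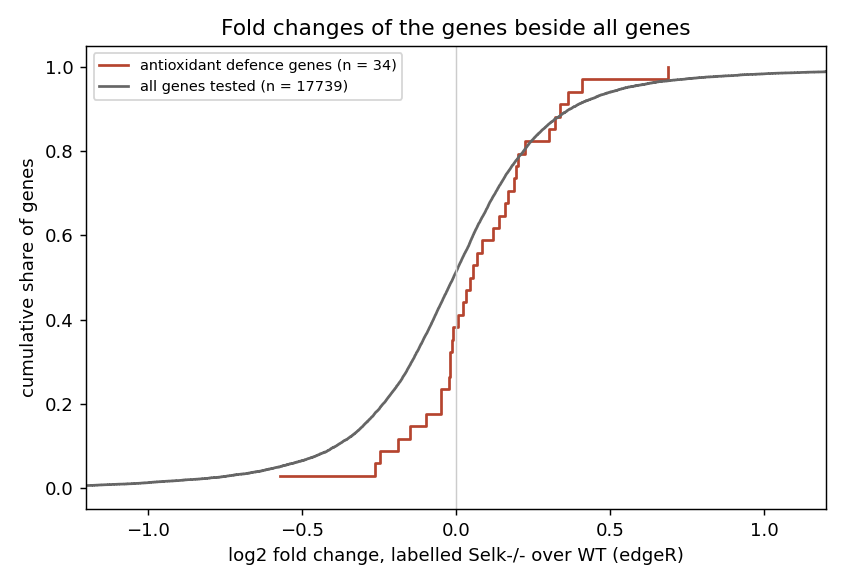
Cumulative share of genes (y axis) by edgeR log2 fold change, labelled Selk-/- over WT (x axis, drawn from -1.2 to 1.2), for the 34 antioxidant defence genes and for all 17739 genes tested. The curve of the 34 genes crosses its middle at 0.050 and that of all genes at -0.0082.

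**Figure D2:**
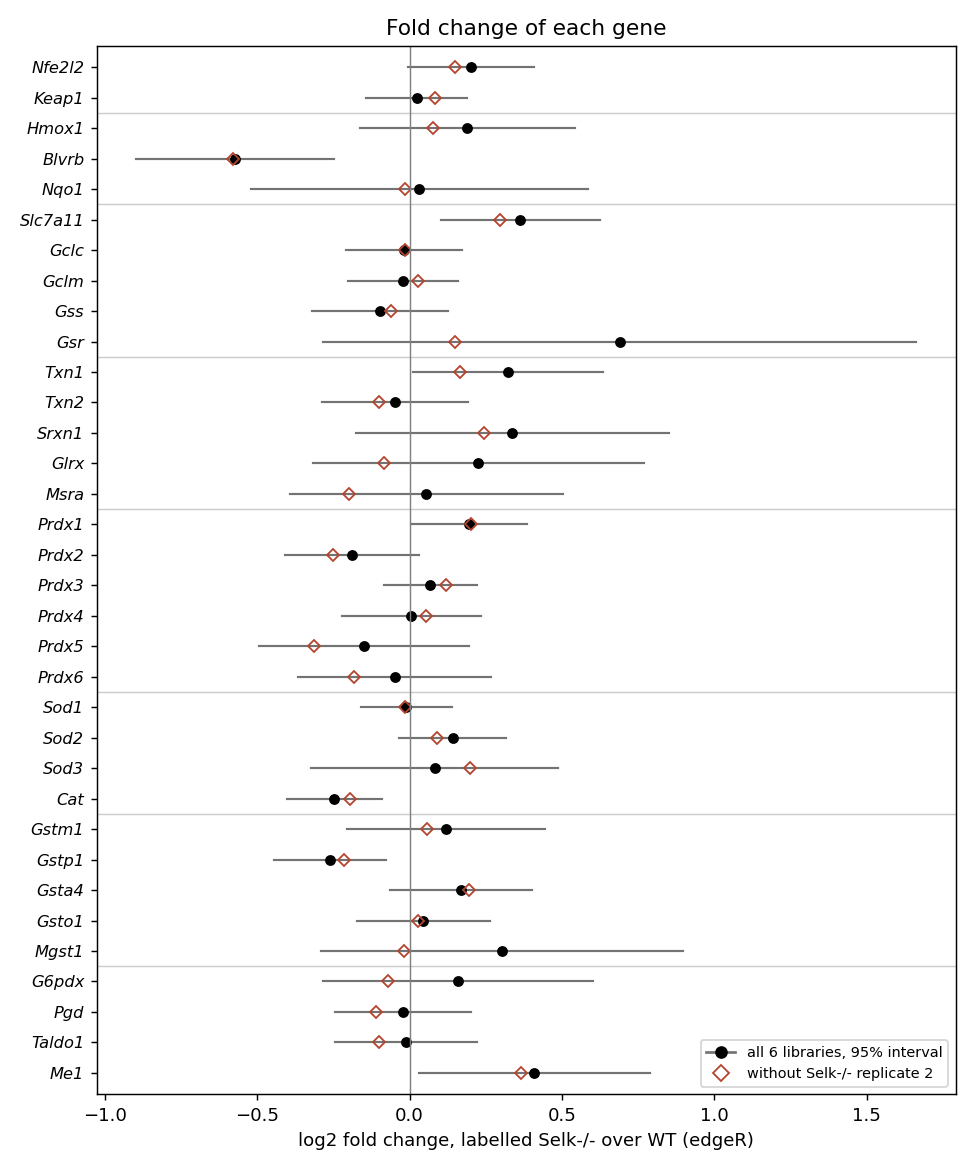
Log2 fold change from edgeR for each of the 34 genes, labelled Selk-/- over WT (x axis), with its 95% interval over all 6 libraries (dots and bars) and the value without replicate 2 labelled Selk-/- (open diamonds). Intervals of 7 genes lie on one side of 0, and the diamonds of Gsr, Glrx, Mgst1, G6pdx and Msra lie well to the left of their dots.

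Of the regulators, Nfe2l2 (ENSMUSG00000015839, chromosome 2, 75505857 to 75534985 in the deposited table, which names no build) had 211, 259 and 239 CPM in replicates 1 to 3 labelled Selk-/-, against 198, 208 and 210.5 CPM in WT replicates 1 to 3. The 3 libraries labelled Selk-/- were above all WT libraries, though replicate 1 exceeded the highest WT library by little. The means were 236 ± 24.3 CPM in the libraries labelled Selk-/- and 205 ± 6.87 CPM in WT (SD, n = 3 each), which gave a log2 fold change of 0.20 (SE 0.0892, 95% interval -0.0038 to 0.41; adjusted p = 0.2704 in edgeR). With a term for the 2 libraries low in small nucleolar RNA, both labelled Selk-/-, that value was 0.039. Here and below, this term leaves replicate 1 labelled Selk-/- as the only library of its group set against WT. Keap1 (ENSMUSG00000003308, chromosome 9, 21141026 to 21150657), its inhibitor, had 50.02, 46.1 and 51.3 CPM in the libraries labelled Selk-/-, against 49.5, 49.4 and 46.2 CPM in WT. These levels overlapped, with a log2 fold change of 0.023 (95% interval -0.14 to 0.19; adjusted p = 0.887 in edgeR). NRF2 is controlled mainly through its protein, which these counts do not measure.

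Blvrb (ENSMUSG00000040466, chromosome 7, 27147403 to 27165569), a reductase of biliverdin and flavins that acts after haem breakdown, showed the lowest log2 fold change of the 34 genes. It had 23.97, 26.5 and 26.7 CPM in replicates 1 to 3 labelled Selk-/-, against 42.4, 42.3 and 29.97 CPM in WT replicates 1 to 3. All 3 libraries labelled Selk-/- were below every WT library, and WT replicate 3 was well below the other 2 WT libraries. Its means were 25.7 ± 1.54 CPM in the libraries labelled Selk-/- and 38.3 ± 7.18 CPM in WT (SD, n = 3 each), which gave a log2 fold change of -0.57 (SE 0.1402, 95% interval -0.90 to -0.25), above the threshold in edgeR (adjusted p = 0.1202) and below it in DESeq2 (adjusted p = 0.00788). Border macrophage markers were lower in the same libraries, as given above, and their part in the Blvrb level was not tested. Of 9 erythroid markers, of cells rich in Blvrb, 8 were in the table, and they summed to 64.8, 181 and 99.2 CPM in the libraries labelled Selk-/-, against 104, 124 and 122 CPM in WT, so these sums overlapped.

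Hmox1, which opens haem to form biliverdin and is an inducible NRF2 target in macrophages, had 68.9, 99.6 and 86.1 CPM in the libraries labelled Selk-/-, against 63.7, 81.6 and 77.9 CPM in WT. The groups overlapped and the log2 fold change was 0.19 (95% interval -0.16 to 0.54; adjusted p = 0.527 in edgeR). It was 0.33 without replicate 1 labelled Selk-/-, 0.076 without replicate 2 labelled Selk-/-, 0.088 without WT replicate 1 and -0.11 with a term for the 2 libraries low in small nucleolar RNA. Nqo1, a quinone reductase often used as a readout of NRF2, was low and had 6.96, 9.48 and 9.87 CPM in the libraries labelled Selk-/-, against 11.6, 7.37 and 6.71 CPM in WT. WT replicate 1 was the highest of the 6, and the log2 fold change of 0.033 had a wide 95% interval, -0.52 to 0.58. Neither gene separated the groups. Nqo1 had 8.77 ± 1.58 CPM in the libraries labelled Selk-/- and 8.56 ± 2.66 CPM in WT (SD, n = 3 each). This spread between libraries left its fold change with little precision.

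For the supply of glutathione, Slc7a11 imports the cystine from which it is made. It (ENSMUSG00000027737, chromosome 3, 49846975 to 50398063) had 16.7, 21.7 and 20.4 CPM in replicates 1 to 3 labelled Selk-/-, against 15.2, 15.4 and 15.1 CPM in WT replicates 1 to 3. The WT libraries lay within a narrow range, and each library labelled Selk-/- was above it. Its means were 19.6 ± 2.59 CPM in the libraries labelled Selk-/- and 15.2 ± 0.192 CPM in WT (SD, n = 3 each), which gave a log2 fold change of 0.36 (SE 0.112; adjusted p = 0.162 in edgeR and 0.119 in DESeq2). That value was 0.13 with the small nucleolar RNA term. The genes of synthesis itself gave values close to WT. Gclc and Gclm, the catalytic and modifier subunits of the rate-limiting ligase, had log2 fold changes of -0.018 (95% interval -0.21 to 0.17) and -0.020 (95% interval -0.20 to 0.16). Gclc had 54.8 ± 1.895 CPM in the libraries labelled Selk-/- and 55.5 ± 4.999 CPM in WT (SD, n = 3 each). Gclm had 30.2 ± 1.42 CPM in the libraries labelled Selk-/- and 30.6 ± 1.59 CPM in WT (SD, n = 3 each). Gss, glutathione synthetase, was at -0.10 (95% interval -0.32 to 0.13). On the opposite strand, Gclm overlaps a long non-coding RNA gene whose count was 0.492 times its own, and Gss overlaps Acss2, at 0.85 times its own, so both counts are uncertain where strand handling is not given.

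Gsr, glutathione reductase, which restores glutathione from its oxidised form, had the largest log2 fold change of the 34, 0.69 (SE 0.392, 95% interval -0.28 to 1.66; adjusted p = 0.396 in edgeR). It had 36.7, 91.8 and 39.3 CPM in replicates 1 to 3 labelled Selk-/-, against 34.1, 29.7 and 40.3 CPM in WT replicates 1 to 3. Replicate 2 labelled Selk-/- alone was high, and the other 5 libraries overlapped. Without that library the log2 fold change was 0.15.

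Among the thioredoxins and their partners, Txn1, the cytosolic thioredoxin, had 55.4, 76.3 and 55.1 CPM in replicates 1 to 3 labelled Selk-/-, against 48.8, 47.5 and 53.3 CPM in WT replicates 1 to 3. The groups did not overlap, but replicates 1 and 3 labelled Selk-/- were only just above WT replicate 3, and replicate 2 was far above both. Its log2 fold change was 0.32 (SE 0.134; adjusted p = 0.24997 in edgeR), and it was 0.17 without replicate 2 labelled Selk-/- and 0.15 with the small nucleolar RNA term. Txn2, the mitochondrial thioredoxin, had 52.04, 57.5 and 48.3 CPM in the libraries labelled Selk-/-, against 51.7, 61.5 and 50.1 CPM in WT, a log2 fold change of -0.048. Srxn1, sulfiredoxin, which repairs overoxidised peroxiredoxins, had 14.2, 21.3 and 20.4 CPM in the libraries labelled Selk-/-, against 18.99, 13.01 and 12.2 CPM in WT. Replicates 2 and 3 labelled Selk-/- were high, but so was WT replicate 1, and the log2 fold change was 0.34 (95% interval -0.18 to 0.85), or -0.052 with the small nucleolar RNA term. Glrx, glutaredoxin, had 18.4, 34.1 and 20.5 CPM in the libraries labelled Selk-/-, against 19.5, 22.2 and 20.9 CPM in WT, and Msra, which reduces oxidised methionine, had 10.2, 16.8 and 10.6 CPM in the libraries labelled Selk-/-, against 11.996, 12.5 and 11.7 CPM in WT. In both, replicate 2 labelled Selk-/- was the highest of the 6. The other 2 libraries labelled Selk-/- were below the highest WT library for Glrx and below all WT libraries for Msra.

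The peroxiredoxins reduce peroxides with a cysteine that thioredoxin restores, except Prdx6, which uses glutathione. Prdx1 (ENSMUSG00000028691, chromosome 4, 116542741 to 116558019), a classical NRF2 target, had 254, 256 and 245 CPM in replicates 1 to 3 labelled Selk-/-, against 200.03, 238 and 221 CPM in WT replicates 1 to 3. The 3 libraries labelled Selk-/- lay close together and above all WT libraries. Its means were 252 ± 5.59 CPM in the libraries labelled Selk-/- and 219.9 ± 19.2 CPM in WT (SD, n = 3 each), which gave a log2 fold change of 0.19 (SE 0.0816, 95% interval 0.0051 to 0.38; adjusted p = 0.253 in edgeR). It was 0.20 without replicate 2 labelled Selk-/- (unadjusted p = 0.0618 in edgeR) and 0.21 with the small nucleolar RNA term. Without WT replicate 1, its lowest library, it was 0.13.
Prdx2, abundant in red cells, had 81.5, 94.04 and 79.4 CPM in the libraries labelled Selk-/-, against 103, 100.2 and 87.02 CPM in WT, a log2 fold change of -0.19 (adjusted p = 0.325 in edgeR). It shares 351 bases with Junb on the opposite strand, whose total count was 34.7 times its own, so its count is uncertain. The mitochondrial Prdx3 was at 0.068 (95% interval -0.085 to 0.22) and Prdx4, of the endoplasmic reticulum, at 0.0061 (95% interval -0.22 to 0.23). Prdx5 had 115, 159 and 113 CPM in the libraries labelled Selk-/-, against 155, 146 and 128 CPM in WT. Replicates 1 and 3 labelled Selk-/- were below all WT libraries, and replicate 2 was above them. Its log2 fold change was -0.15 with all libraries and -0.31 without replicate 2 labelled Selk-/-. It overlaps Trmt112 on the opposite strand, at 0.257 times its count, so its count is uncertain. Prdx6 was at -0.049 (95% interval -0.37 to 0.27).

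Superoxide dismutases turn superoxide into hydrogen peroxide, which catalase and the peroxidases remove. Sod1 had 127, 132 and 125 CPM in the libraries labelled Selk-/-, against 126, 134 and 126 CPM in WT, with a log2 fold change of -0.011 (95% interval -0.16 to 0.14), and its count is uncertain because it overlaps Scaf4 on the opposite strand, at 0.25 times its count. Sod2, the mitochondrial manganese enzyme, had 56.5, 64.9 and 56.996 CPM in the libraries labelled Selk-/-, against 55.7, 53.4 and 52.7 CPM in WT, without overlap, and its log2 fold change was 0.14 (adjusted p = 0.352 in edgeR), or 0.090 without replicate 2 labelled Selk-/- and 0.068 with the small nucleolar RNA term. The secreted Sod3 was at 0.083, and replicate 1 labelled Selk-/- was its highest library. Cat (ENSMUSG00000027187, chromosome 2, 103284194 to 103315505), the peroxisomal enzyme that splits hydrogen peroxide, had 75.5, 71.6 and 78.9 CPM in replicates 1 to 3 labelled Selk-/-, against 92.8, 85.6 and 89.8 CPM in WT replicates 1 to 3. All libraries labelled Selk-/- were below all WT libraries, and both groups were tight. Its means were 75.3 ± 3.65 CPM in the libraries labelled Selk-/- and 89.4 ± 3.63 CPM in WT (SD, n = 3 each), which gave a log2 fold change of -0.25 (SE 0.0672, 95% interval -0.40 to -0.091). The adjusted p was 0.134 in edgeR and 0.0491, just under the threshold, in DESeq2. Without replicate 2 labelled Selk-/- it was -0.20, and with the small nucleolar RNA term -0.24. Microglia markers were lower in the same libraries, as given above, and their part in the Cat level was not tested.

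The glutathione transferases couple glutathione to electrophiles. Gstp1 (ENSMUSG00000060803, chromosome 19, 4085407 to 4087985) had 45.6, 39.97 and 39.4 CPM in replicates 1 to 3 labelled Selk-/-, against 51.6, 49.6 and 48.7 CPM in WT replicates 1 to 3. Each library labelled Selk-/- was below each WT library, with replicate 1 nearest to WT. The means were 41.7 ± 3.44 CPM in the libraries labelled Selk-/- and 49.9 ± 1.47 CPM in WT (SD, n = 3 each), which gave a log2 fold change of -0.26 (SE 0.0787; adjusted p = 0.156 in edgeR and 0.107 in DESeq2). With the small nucleolar RNA term the value was -0.13. Its close paralog Gstp2 had 7.51, 6.06 and 6.26 CPM in the libraries labelled Selk-/-, against 7.701, 8.13 and 7.49 CPM in WT, a log2 fold change of -0.23, and reads of these near-identical genes may be shared between them. Gstm1, also one of a family of like genes, was at 0.12 (95% interval -0.20 to 0.45). Gsta4, which removes the lipid peroxidation product hydroxynonenal, was at 0.17 (95% interval -0.066 to 0.40), and Gsto1 at 0.045 (95% interval -0.17 to 0.26). Gsto1 overlaps Cfap43 on the opposite strand, at 0.483 times its count, so its count is uncertain. The membrane-bound Mgst1 had 23.1, 43.001 and 25.01 CPM in the libraries labelled Selk-/-, against 25.1, 21.6 and 27.1 CPM in WT, and again replicate 2 labelled Selk-/- alone was high.

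The reductions above draw on NADPH. Me1 (ENSMUSG00000032418, chromosome 9, 86463424 to 86578006), which makes it from malate, was low and had 7.62, 9.52 and 9.302 CPM in replicates 1 to 3 labelled Selk-/-, against 7.098, 7.37 and 5.42 CPM in WT replicates 1 to 3. The groups did not overlap, but replicate 1 labelled Selk-/- was only just above WT replicate 2. Its log2 fold change was 0.41 (SE 0.163, 95% interval 0.031 to 0.79; adjusted p = 0.234 in edgeR), and 0.20 with the small nucleolar RNA term. G6pdx and Pgd are the dehydrogenases of the oxidative pentose phosphate pathway. G6pdx had 56.9, 97.7 and 68.3 CPM in the libraries labelled Selk-/-, against 66.4, 66.1 and 66.97 CPM in WT. The WT libraries were within 1 CPM of each other, replicate 1 labelled Selk-/- was below them and replicate 2 far above. Pgd had 123, 156 and 131 CPM in the libraries labelled Selk-/-, against 143, 135 and 139 CPM in WT, and Taldo1 137, 165 and 133 CPM in the libraries labelled Selk-/-, against 149.5, 153 and 136 CPM in WT. Their log2 fold changes were 0.16 for G6pdx, -0.022 for Pgd and -0.012 for Taldo1, with adjusted p of 0.668, 0.922 and 0.961 in edgeR. G6pdx overlaps Ikbkg on the opposite strand, whose count was 0.718 times its own, so its count is uncertain.

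**Figure D3:**
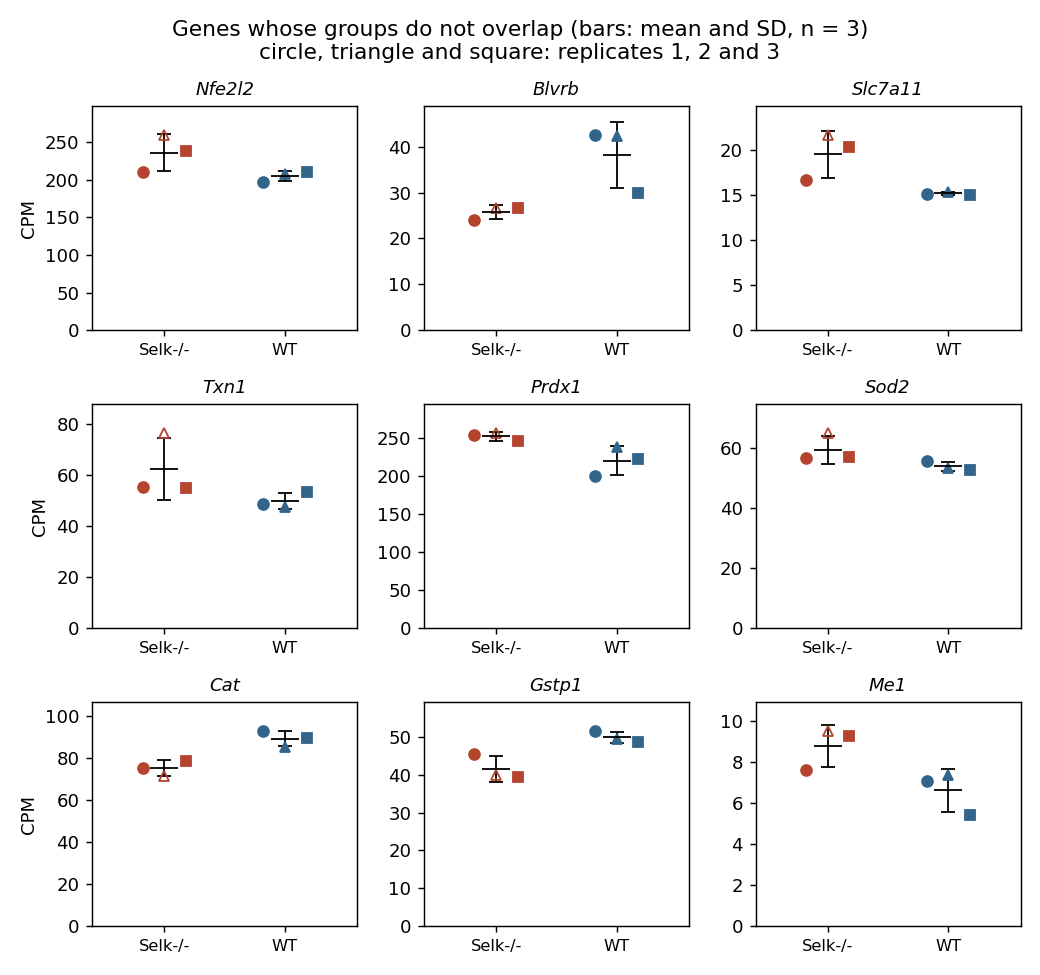
CPM (y axes, from 0) of the 9 genes whose groups do not overlap, in the libraries labelled Selk-/- (left) and WT (right), with the mean and SD (n = 3). Cat and Blvrb are lower in the libraries labelled Selk-/-, and in Txn1 replicate 2 labelled Selk-/- stands above the other libraries at 76.3 CPM.

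One library decided many of these values. Replicate 2 labelled Selk-/- was the highest of the 6 libraries for 18 of the 34 genes (52.9%), against 21.5% of all genes tested. Its median deviation from each gene's mean over the libraries was 0.17 in log2 CPM over the 34 genes, where the other 5 libraries were at -0.065 to -0.0099, and it was -0.0095 over all genes. For 8 genes it was at least 1.3 times the median of the other 5 libraries, a fold chosen after the values were seen. These were Gsr (2.499 times), Mgst1 (1.72), Glrx (1.66), Srxn1 (1.497), G6pdx (1.47), Msra (1.43), Txn1 (1.43) and Slc7a11 (1.41). That is 23.5% of the 34 genes, against 12.1% of all genes tested and 5.6% of the 10718 at or above the mean CPM of the lowest of the 34.

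The same library held far more neutrophil RNA. The 13 neutrophil markers, all detected in the table, summed to 471, 6521 and 1225 CPM in replicates 1 to 3 labelled Selk-/-, against 810, 522 and 1270 CPM in WT, and each of the 13 was highest in replicate 2 labelled Selk-/-. The 6 monocyte markers summed to 97.3, 587 and 161 CPM in the libraries labelled Selk-/-, against 102, 99.7 and 148 CPM in WT, and each of the 6 was highest in replicate 2 labelled Selk-/-. Of the 8 erythroid markers found, 7 were highest in that library. The 8 genes listed above were picked by their level in that library, so their being highest there follows nearly from that choice. The part of neutrophil, monocyte or other blood cell RNA in the levels of these 8 genes was not tested. Without that library, 5 of the 34 genes had an unadjusted p under 0.05 (14.7%, against 15.6% of all genes), 1 higher and 4 lower. Slc7a11 was the higher one, at 0.30, and Blvrb (-0.58), Cat (-0.20), Prdx5 (-0.31) and Prdx2 (-0.25) the lower ones. G6pdx (-0.071), Glrx (-0.082), Mgst1 (-0.019), Msra (-0.20) and Nqo1 (-0.015) were then below 0 in log2 fold change. Without replicate 1 labelled Selk-/-, 9 of the 34 had an unadjusted p under 0.05 (26.5%, against 17.7% of all genes).

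**Figure D4:**
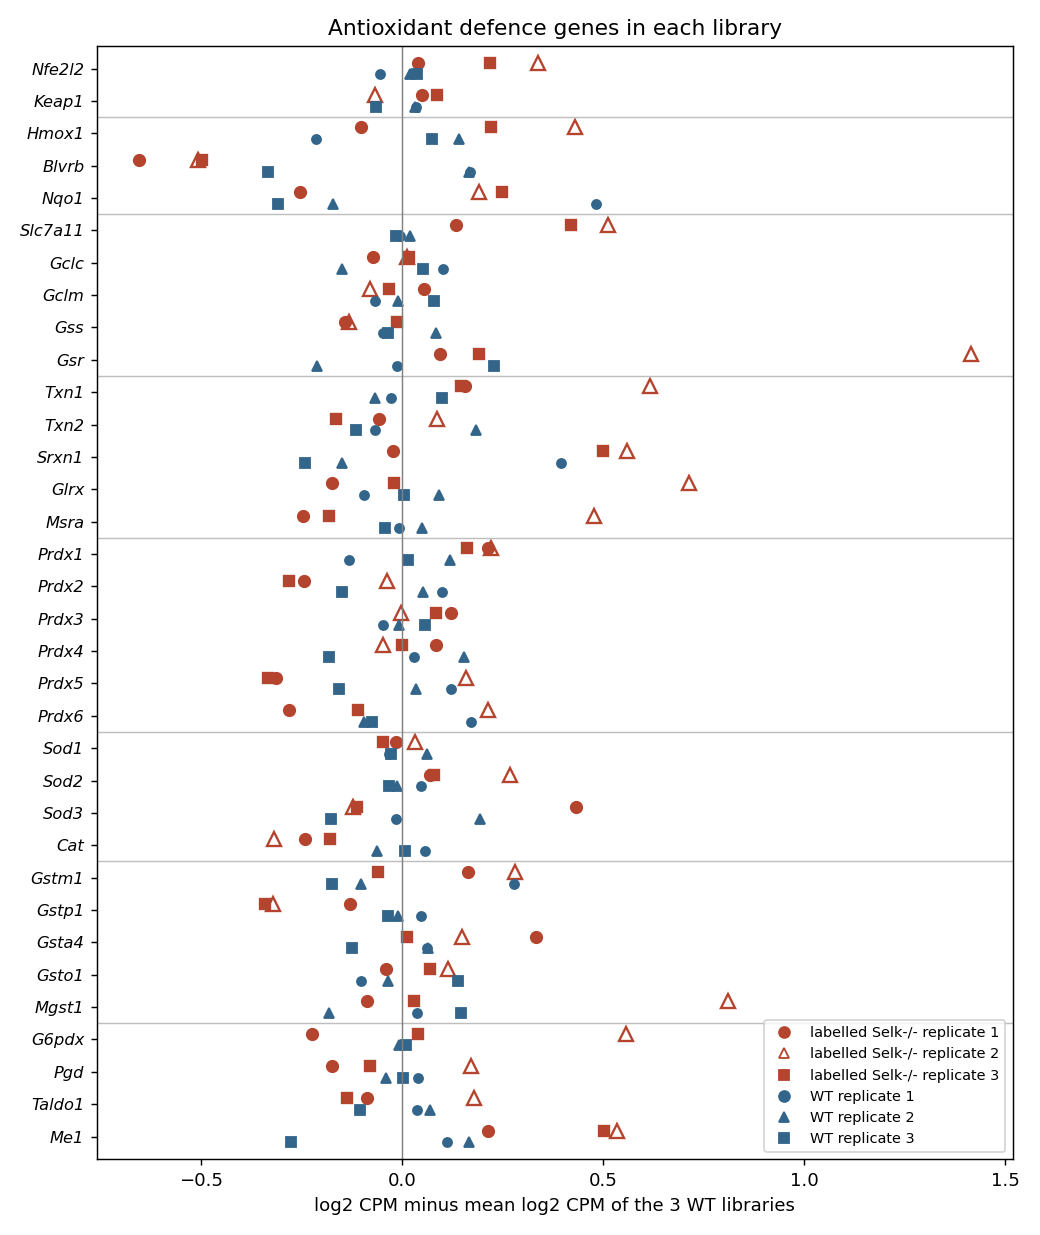
Level of each of the 34 genes in each library, as log2 CPM minus the mean log2 CPM of the 3 WT libraries (x axis), with genes grouped by role. The open triangles, replicate 2 labelled Selk-/-, lie far to the right for Gsr, Mgst1, Glrx, Txn1, Srxn1, G6pdx, Me1, Slc7a11 and Msra. In Srxn1, Me1 and Slc7a11 replicate 3 labelled Selk-/- lies to the right as well.

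**Figure D5:**
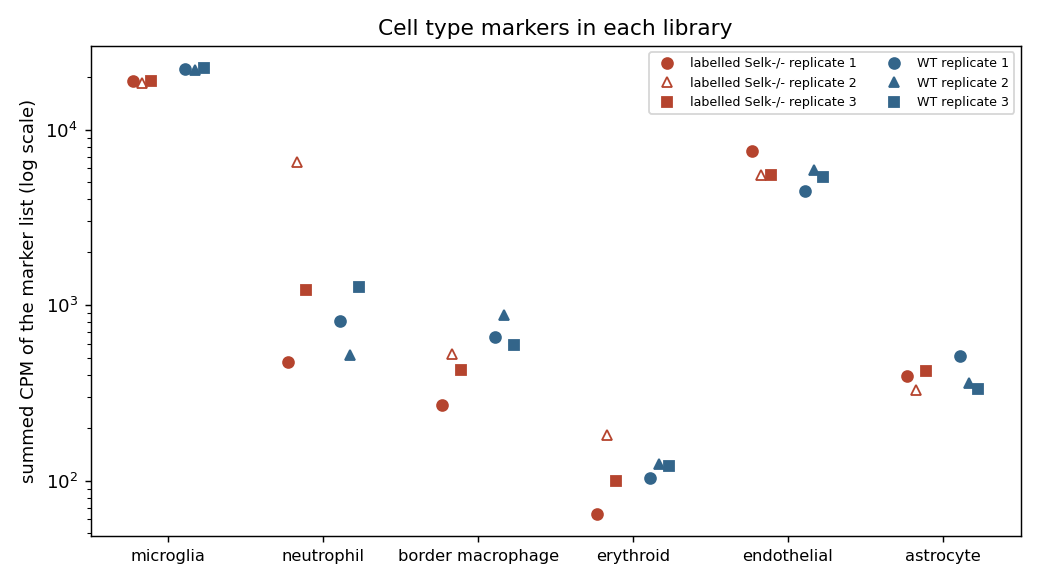
Summed CPM of 6 marker lists (y axis, log scale) in each library. Neutrophil markers reached 6521 CPM in replicate 2 labelled Selk-/- and stayed within 471 to 1270 CPM elsewhere, and microglia and border macrophage markers were lower in the libraries labelled Selk-/- without overlap.

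A term for the 2 libraries low in small nucleolar RNA leaves only replicate 1 labelled Selk-/- set against WT. In this fit the median log2 fold change of the 34 genes was -0.058. Blvrb was at -0.67, Gsta4 at 0.33 and Sod3 at 0.43, and the last 2 were highest in replicate 1 labelled Selk-/-. An effect of the split on these genes cannot be told apart from the loss of 2 libraries of that group.

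Other genes of the pathway came from lists set by role, and none passed the edgeR threshold either. Adjusted p-values under 0.05 in DESeq2 given below stand beside 7.62% of all genes that it called. Of 17 other regulators of NRF2, 10 were higher and 7 lower (median log2 fold change 0.041), and 5 had an unadjusted p under 0.05 (29.4%, against 19.1% of all genes). Syvn1, a ubiquitin ligase of the endoplasmic reticulum that can mark NRF2 for degradation, had 59.8 ± 3.47 CPM in the libraries labelled Selk-/- and 47.6 ± 1.59 CPM in WT (SD, n = 3 each). This gave a log2 fold change of 0.33, with an adjusted p of 0.108 in edgeR and 0.0152 in DESeq2. Dpp3, a peptidase that competes with NRF2 for KEAP1, had 37.99 ± 3.29 CPM in the libraries labelled Selk-/- and 49.9 ± 4.66 CPM in WT (SD, n = 3 each). This gave a log2 fold change of -0.39, with an adjusted p of 0.121 in edgeR and 0.0217 in DESeq2. The 2 most abundant per length were Sqstm1, the autophagy receptor that sequesters KEAP1, with a log2 fold change of 0.17, and Park7, an oxidation-sensitive protein reported to stabilise NRF2, with -0.082.

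Of 19 other NRF2 targets tested, 7 were higher and 12 lower (median -0.093), and 4 had an unadjusted p under 0.05 (21.1%, against 19.1% of all genes). The most abundant per length were the ferritin chains, which store iron. Ftl1 had 1327 ± 30.01 CPM in the libraries labelled Selk-/- and 1489.8 ± 73.96 CPM in WT (SD, n = 3 each), which gave a log2 fold change of -0.17 (adjusted p = 0.262 in edgeR), and that of Fth1 was -0.062. Cd36, the scavenger receptor named in the study's title and an NRF2 target in macrophages, had 14.8, 22.7 and 24.9 CPM in the libraries labelled Selk-/-, against 31.6, 37.3 and 35.9 CPM in WT. Its log2 fold change was -0.75 (adjusted p = 0.127 in edgeR and 0.002595 in DESeq2), and that of the carbonyl reductase Cbr1 was -0.32 (adjusted p = 0.164 in edgeR). Of 25 other glutathione enzymes tested, 9 were higher and 16 lower (median -0.11), and 2 had an unadjusted p under 0.05 (8%, against 19.1% of all genes). Hpgds, which uses glutathione to make prostaglandin D, had 252 ± 12.1 CPM in the libraries labelled Selk-/- and 302 ± 35.1 CPM in WT (SD, n = 3 each). Its log2 fold change was -0.26 (adjusted p = 0.213 in edgeR), that of the transferase Gstt3 was -0.37 (adjusted p = 0.245 in edgeR) and that of the transferase Gstm5 was -0.092.

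Of 19 other thiol redox genes, 6 were higher and 13 lower (median -0.092), and 7 had an unadjusted p under 0.05 (36.8%, against 19.1% of all genes), 1 higher and 6 lower. Glrx5, the mitochondrial glutaredoxin of iron-sulfur cluster assembly, had 13.2, 12.8 and 13.4 CPM in replicates 1 to 3 labelled Selk-/-, against 18.4, 18.7 and 18.2 CPM in WT replicates 1 to 3. The groups were far apart relative to their spread, and the log2 fold change was -0.49 (SE 0.0814; adjusted p = 0.105 in edgeR and 0.00471 in DESeq2). Sesn2, a stress-inducible sestrin, had 13.9, 14.99 and 15.1 CPM in the libraries labelled Selk-/-, against 20.02, 19.3 and 20.5 CPM in WT, a log2 fold change of -0.44 (adjusted p = 0.105 in edgeR and 0.0114 in DESeq2). The most abundant per length were the thioredoxin inhibitor Txnip, with a log2 fold change of 0.15, and the sestrin Sesn1, with 0.047.

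The selenoprotein partners of these enzymes were 3 higher and 4 lower of 7, with a median log2 fold change of -0.11. This median turned to 0.037 without replicate 1 labelled Selk-/-, 0.035 without replicate 3 labelled Selk-/- and 0.027 without WT replicate 2. Of the 7, 1 had an unadjusted p under 0.05 (14.3%, against 19.1% of all genes). That was Txnrd2, the mitochondrial thioredoxin reductase, with a log2 fold change of -0.26 (adjusted p = 0.163 in edgeR). Gpx1, the main cytosolic glutathione peroxidase, was at 0.019, and Gpx4, which reduces lipid peroxides, at -0.25 (adjusted p = 0.287 in edgeR). On the side of oxidant production, 6 of 8 tested genes of the NADPH oxidase were higher and 2 lower (median 0.045, and -0.075 without replicate 2 labelled Selk-/-). Of the 8, 2 had an unadjusted p under 0.05 (25%, against 19.1% of all genes). Cyba, the membrane subunit p22phox, had 185, 168 and 171 CPM in replicates 1 to 3 labelled Selk-/-, against 290.1, 287 and 224 CPM in WT replicates 1 to 3. All libraries labelled Selk-/- were below all WT libraries, with a log2 fold change of -0.61 (SE 0.1103; adjusted p = 0.105 in edgeR and 3.77e-05 in DESeq2). The cytosolic subunits Ncf1 and Ncf4 had log2 fold changes of 0.012 and -0.17.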

How the data were processed

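RNA-seq of microglia was given in 6 libraries, 3 per genotype, grouped by the genotype labels; replicate numbers follow the order of the samples and pair nothing. Raw gene counts and FPKM were deposited by the authors in 1 table of 55414 genes. Per the labels' protocols, reads were aligned with Hisat2 2.0.5, FPKM came from stringtie 2.2.0 and differences from DESeq2 1.20.0. The submitters' processing notes name Bowtie 0.12.2, mm8 and mm9. The table names no build, and the sources used here do not give the strand setting of the counting.

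Counts were tested here with edgeR 4.0.16 (R 4.3.3; TMM scaling, filterByExpr, robust quasi-likelihood fit with all 6 libraries and genotype as the term, Benjamini-Hochberg adjustment over the 17739 genes tested, threshold 0.05). The test was also run on simulated counts, drawn independently for each library from the fitted dispersions. These had no shifts of whole libraries like those seen here, so they cannot show how the test behaves under such shifts. DESeq2 1.42.0, limma 3.58.1 on voom weights and on log2(FPKM + 1), other filters, each library left out, and a term for libraries under 0.5 times the WT median in small nucleolar RNA were alternatives, with a replicate block over title numbers added after seeing the data. CPM are TMM-scaled. A count of 3, the floor set here, equals 0.107 to 0.142 CPM, for counting error only. Within groups no pair of libraries agreed within sampling noise (chi-square per degree of freedom 13.3 to 43.5).

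The 34 genes and the other lists were chosen with earlier results of these data known. The rule for named genes gives all 34, in full those with an unadjusted p under 0.05, both regulators and the 5 most abundant, and from each other list the 2 most abundant and the 2 with the smallest p. Marker lists of 11 cell types were summed. Promoters and their motifs are from RefSeq, GRCm38.p6.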

Additional observations from a re-analysis of the deposited data

How the results depend on the processing

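The titles share the number 6 between replicate 2 labelled Selk-/- and WT replicate 2, and the number 3 between replicate 3 labelled Selk-/-, whose title has 2 numbers, and WT replicate 1. Deviations from the group means correlated at -0.13 and 0.14 across genes in these 2 pairs, and at -0.15 to 0.22 in the other pairs. Deviations from the same group means constrain each other, so these values cannot decide whether the numbers pair libraries. The labels state no pairing, and the main fit used none. A replicate block over these 4 libraries, chosen after seeing the data, called 19 genes and 0 of the 34, with 7 of the 34 (20.6%, against 19.1% of all genes) at an unadjusted p under 0.05 and 18 (52.9%, against 52.7%) without overlap. Under 20 alternatives 16 of the 34 genes kept the sign of their log2 fold change, and Blvrb and Cat, both in DESeq2, were the 2 genes that passed an adjusted threshold under any of them. The number of genes called over the whole table was 0 in edgeR, 972 in DESeq2, 92 with a minimum of 10 CPM in 3 libraries (where Me1 and Nqo1 could not be tested), 1 with the gene length trend removed, and 0 to 59 with 1 library left out, the 59 being without replicate 1 labelled Selk-/-. Genes of the 34 called numbered 0 in edgeR, 2 in DESeq2 and 0 with any 1 library left out. Those with an unadjusted p under 0.05 numbered 7, and 4 in each of 3 limma fits on FPKM (11.8%, against 22.6%, 22.7% and, without a filter, 12.2% of all genes). They numbered 3 (8.82%) without both libraries titled with 2 numbers (14.1% of all genes), and 5 to 9 with 1 library left out. The lowest share was 14.7%, without replicate 2 labelled Selk-/- (15.6% of all genes) and without WT replicate 3 (19.2%). The highest was 26.5%, without replicate 1 labelled Selk-/- (17.7% of all genes). Without WT replicate 1 the share was 20.6%, against 12.5% of all genes. Genes without overlap numbered 9, and 15 without the libraries titled with 2 numbers (44.1%, against 49.8% of all genes). Without those low in small nucleolar RNA they numbered 21 (61.8%, against 59.2%). With 1 library left out they numbered 10 to 15. The share ran from 29.4% without WT replicate 2 (35.5% of all genes) to 44.1% without replicate 2 labelled Selk-/- (35.9%). Fewer libraries make separation easier. The median log2 fold change of the 34 genes was -0.058 with the small nucleolar RNA term and 0.0059 to 0.079 with 1 library left out. Marker sums without overlap numbered 2 of 11, and 2 to 5 with 1 library left out, the 5 being without replicate 1 labelled Selk-/-. The causes were not tested.

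Signs turned in 18 genes, none of them called in edgeR or DESeq2. Prdx4 was at -0.0062 without TMM, -0.0061 with the 10 CPM minimum, -0.022 without a filter, -0.010 in limma-voom with sample weights, -0.0064 on log2(FPKM + 1) with or without a filter and -0.0065 on log2(FPKM + 0.1). Keap1 was at -0.0056 without a filter, -0.015 on log2(FPKM + 1) with or without a filter and -0.016 on log2(FPKM + 0.1). In limma-voom Gclc was at 0.021 and Msra at -0.085, and on log2(FPKM + 0.1) Msra was at -0.0028. Without both libraries titled with 2 numbers the values were -0.028 for Keap1, -0.20 for Nqo1, 0.0031 for Gclc, 0.041 for Gclm, -0.059 for Prdx4, 0.0070 for Sod1, 0.020 for Pgd and 0.011 for Taldo1. Without both libraries low in small nucleolar RNA they were -0.090 for Hmox1, -0.28 for Nqo1, 0.071 for Gclm, -0.034 for Srxn1, -0.16 for Glrx, -0.23 for Msra, 0.0030 for Sod1, -0.024 for Gsto1, -0.075 for Mgst1 and -0.20 for G6pdx. With the term for these libraries they were -0.11 for Hmox1, -0.30 for Nqo1, 0.052 for Gclm, -0.052 for Srxn1, -0.18 for Glrx, -0.25 for Msra, -0.044 for Gsto1, -0.095 for Mgst1 and -0.22 for G6pdx. With the gene length trend removed Txn2 was at 0.015, Sod1 at 0.092 and Taldo1 at 0.052. With the replicate block the values were -0.016 for Keap1, 0.049 for Gclc, -0.11 for Prdx4, 0.024 for Prdx6, -0.20 for Sod3 and 0.054 for Pgd. With 1 library left out the values ran from -0.084 to 0.030 for Gclc, -0.069 to 0.092 for Prdx4, -0.18 to 0.068 for Prdx6, -0.030 to 0.027 for Sod1, -0.11 to 0.20 for Sod3, -0.11 to 0.061 for Pgd, -0.10 to 0.065 for Taldo1, -0.11 to 0.31 for Nqo1 and -0.056 to 0.031 for Gclm. They ran from -0.082 to 0.40 for Glrx, -0.20 to 0.20 for Msra, -0.019 to 0.48 for Mgst1, -0.071 to 0.33 for G6pdx, -0.10 to 0.055 for Txn2 and -0.0072 to 0.13 for Gsto1. Without a turn of sign they ran from 0.23 to 0.56 for Srxn1, 0.13 to 0.26 for Prdx1, 0.043 to 0.12 for Prdx3, -0.31 to -0.048 for Prdx5, 0.090 to 0.19 for Sod2, 0.044 to 0.27 for Gstm1, 0.091 to 0.26 for Gsta4, -0.12 to -0.048 for Gss and 0.00086 to 0.083 for Keap1.

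Groups of 3 libraries limit these values: 3 against 3 cannot reach an exact permutation p under 0.1. The 2 libraries low in small nucleolar RNA are both labelled Selk-/-, so in them genotype and this split cannot be told apart. Counts hold no protein or enzyme activity. Microglia and vessel, border and blood cell RNA were measured together.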
